A study of Homo sapiens with 16 samples.

Results

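A set of 9 genes that encode receptor tyrosine kinases and coreceptors of neuroblastoma cells was followed in SH-SY5Y, a human neuroblastoma line. They are the receptor tyrosine kinases RET, ALK, KIT, NTRK2 (TrkB) and NTRK3 (TrkC), the neurotrophin receptor NGFR (p75), and the RET coreceptors GFRA1, GFRA2 and GFRA3. The 9 genes were taken by symbol from the 26410 genes of the deposited tables, each matched by its Ensembl identifier, and all 9 were present. The study asked what loss of TRPM2, a calcium-permeable channel, does to these cells with and without doxorubicin, a topoisomerase inhibitor that damages DNA.

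Polyadenylated RNA was sequenced in 16 libraries, 4 in each of 4 groups. The clones KO11 and KO28 are labelled TRPM2 KO, and Scr13 and Scr16 are scrambled control (Scr) clones. Each clone gave 2 untreated libraries and 2 libraries after 24 h of doxorubicin, at 0.3 µM by the sample labels and 3 µM by the text on the whole series. All clones grew from single cells that carried a Cas9-guide vector (TRPM2 gRNA in KO, scrambled gRNA in Scr) with a donor for GFP and puromycin resistance, and all had been through puromycin selection. A genotype is thus represented by 2 clones, and a difference between genotypes over 4 libraries against 4 cannot be told apart from a difference that these particular clones happened to carry. The libraries held 10481177 to 25086085 reads on genes (median 16037366.5), and 3 reads corresponded to between 0.118 and 0.285 normalized CPM (read counts relative to library size), a floor that covers counting error only.

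Receptor tyrosine kinases are single-pass membrane proteins that dimerize when a ligand binds and phosphorylate each other, which recruits adaptors and activates the RAS-MAPK and PI3K-AKT pathways. RET does not bind its ligands alone: a GFRA protein, anchored to the membrane by a lipid, presents GDNF (GFRA1), neurturin (GFRA2) or artemin (GFRA3). In the sympathetic lineage that gives rise to neuroblastoma, ALK is a known oncogene, TrkB with its ligand BDNF is known from aggressive tumours, and KIT binds stem cell factor, the product of KITLG.

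The 250 bases before the RefSeq start were given for 7 members, in GRCh38.p14. They are shown for RET and ALK, the most abundant members, and for NTRK3 and KIT, the members that were higher in the untreated KO libraries, so that promoters of genes that moved in opposite directions can be read side by side. Only bases before the GENCODE start are printed, 5′ to 3′ on the strand of the gene. Capitals mark GC boxes (GGGCGG or, on the other strand, CCGCCC) and a CCAAT box (CCAAT or ATTGG), and neighbouring matches may run together.
ALK, chr2:29921587-29921836, minus strand: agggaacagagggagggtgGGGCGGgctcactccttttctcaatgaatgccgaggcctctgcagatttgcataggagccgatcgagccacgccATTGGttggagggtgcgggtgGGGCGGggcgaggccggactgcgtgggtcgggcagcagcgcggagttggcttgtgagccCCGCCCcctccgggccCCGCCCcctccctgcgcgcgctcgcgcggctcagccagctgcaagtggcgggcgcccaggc
RET, chr10:43076819-43077026, plus strand: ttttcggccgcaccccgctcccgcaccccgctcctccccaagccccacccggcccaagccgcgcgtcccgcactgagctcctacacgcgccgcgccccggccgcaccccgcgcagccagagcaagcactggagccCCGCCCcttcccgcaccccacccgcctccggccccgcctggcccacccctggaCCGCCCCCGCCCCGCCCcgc
NTRK3, chr15:88256769-88256989, minus strand: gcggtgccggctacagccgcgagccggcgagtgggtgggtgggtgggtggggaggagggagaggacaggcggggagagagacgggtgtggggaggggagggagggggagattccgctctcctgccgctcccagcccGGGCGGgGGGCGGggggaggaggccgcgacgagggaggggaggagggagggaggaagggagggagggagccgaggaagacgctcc
KIT, chr4:54657707-54657917, plus strand: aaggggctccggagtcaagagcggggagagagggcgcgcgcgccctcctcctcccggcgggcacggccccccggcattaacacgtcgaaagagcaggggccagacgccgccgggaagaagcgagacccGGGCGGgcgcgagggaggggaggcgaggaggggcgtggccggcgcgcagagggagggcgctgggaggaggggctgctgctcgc
In the full windows, the GC box was found 5 times for RET, 4 times for ALK, 2 times for NTRK3 and 1 time for KIT, where 42.6% of the 35116 promoters of this length held at least 1. ALK also held 1 CCAAT box, found in 32.0% of promoters. None of these 4 windows held the E-box CACGTG (6.34% of promoters) or the TATA box TATAAA (10.7%), each searched on both strands. The GC content was 79.6% for RET, 76.4% for KIT, 73.2% for NTRK3 and 71.6% for ALK.

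The labels were first checked on TRPM2 itself. Untreated libraries labelled KO held 1.93 and 2.23 (KO11) and 1.41 and 2.19 (KO28) normalized CPM of TRPM2, and untreated Scr libraries held 0.118 and 0.115 (Scr13) and 0 in both Scr16 libraries. TRPM2 was thus higher in the libraries labelled KO, by 1.47 on the log2 scale (SE 0.27, adjusted p = 0.0015, limma), with no overlap between the groups. After doxorubicin the KO libraries held 1.22, 1.83, 1.37 and 0.658, and the Scr libraries held 0.0594, 0.0631, 1.33 and 0.390, with overlap between the groups. The study describes a deletion of the start of the coding sequence, and values summed over the whole gene cannot tell whether reads came from that part. The direction of every genotype difference given here is that of the libraries labelled TRPM2 KO. Treatment was checked on CDKN1A, the p53 target that encodes p21, which rose from 57.0 ± 15.2 to 337 ± 25.1 normalized CPM in Scr and from 136 ± 16.5 to 736 ± 45.3 in KO (mean ± SD, n = 4).

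The transcription factors of sympathetic neuroblasts were abundant in all groups, and the summed level of 12 adrenergic markers was 8506 ± 363 in untreated Scr, 8964 ± 352 in untreated KO, 9293 ± 352 in treated Scr and 9058 ± 319.7 in treated KO (normalized CPM, SD, n = 4). TH, which encodes the rate-limiting enzyme of catecholamine synthesis, was near 0, with group means from 0.224 to 0.523, and how reads of overlapping genes and strands were counted is not given in the sources used here. The markers of Schwann cells and glia summed to means of 0.963 to 2.67, with ERBB3 the most abundant, and those of other cell types to 2.69 to 4.60, with MITF the most abundant. SOX10, FOXD3, GFAP, PTPRC, PECAM1, CDH5, KRT5, KRT14 and TYR had no value in the tables used here. In RNA from whole cultures, fewer cells of a type and less RNA per cell cannot be told apart.

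Per kilobase of exon, RET and ALK stood above all other members in each group. In untreated Scr libraries the levels were 58.1 ± 4.21 normalized CPM per kb for RET, 32.4 ± 4.62 for ALK and 5.49 ± 1.11 for GFRA2 (SD, n = 4), and these 3 did not overlap with each other or with the next gene. NGFR (2.25 ± 0.540) and GFRA3 (1.82 ± 0.775) overlapped, as did NTRK3 (0.377 ± 0.108), KIT (0.225 ± 0.159), GFRA1 (0.140 ± 0.138) and NTRK2 (0.121 ± 0.0514), each with its neighbour in this order. In untreated KO libraries the order below ALK was KIT (1.52 ± 0.509), GFRA2 (1.31 ± 0.346), NGFR (1.17 ± 0.235), NTRK3 (1.15 ± 0.225) and GFRA3 (0.718 ± 0.352), each overlapping with the next. KIT was above 2 other members in untreated Scr and above 6 in untreated KO. This order depends on the exon length, which merges all annotated exons of a gene (26.75 kb for NTRK3 and 5.56 kb for KIT). Without division by length, NTRK3 (30.8) was above KIT (8.48) in untreated KO (mean normalized CPM). After doxorubicin RET reached 98.1 ± 6.66 in Scr and 86.5 ± 3.62 in KO, ALK was at 34.5 ± 2.17 and 21.7 ± 1.12, and NTRK2 was at most 0.382 in any library.

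**Figure D1:**
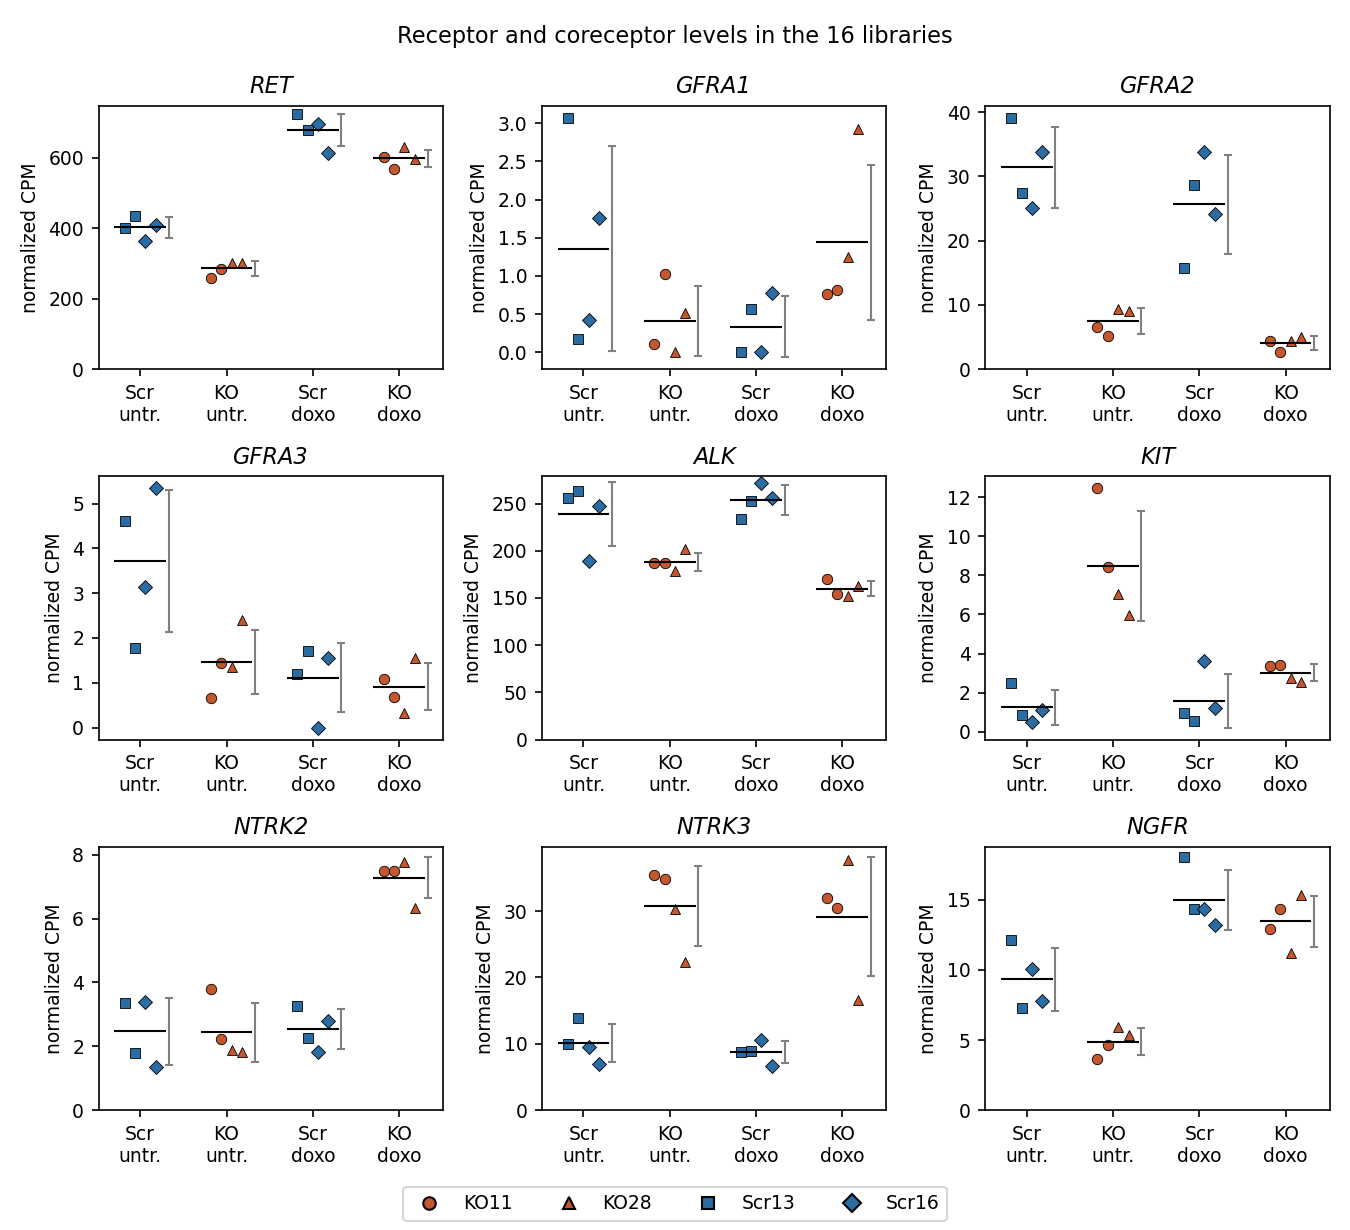
Normalized CPM (vertical axes, linear, 1 scale per gene) of the 9 members in the 16 libraries, by group. Each point is a library, its shape the clone and its colour the genotype label; black bars are means and grey bars ± SD over 4 libraries. GFRA2 was between 25.1 and 39.2 in untreated Scr and between 5.18 and 9.32 in untreated KO, while NTRK2 was between 6.34 and 7.78 in treated KO and at most 3.80 in the other groups.

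Of the 9 members, 8 passed the filter (1 normalized CPM or more in at least 4 libraries) among the untreated libraries, and GFRA1 did not. Of the 8 tested members, 6 differed between KO and Scr without treatment (adjusted p below 0.05 with limma), 2 higher and 4 lower in KO, where 4.84% of the 14364 tested genes were called (2.3% higher and 2.54% lower). For 5 of the 8 the groups did not overlap, against 9.29% of tested genes. After doxorubicin 4 of 8 were called, 2 higher and 2 lower, against 8.69% of 14572 genes (4.52% higher and 4.17% lower), and the same 4 did not overlap (13.2% of genes). The median log2 difference of the 8 tested members was -0.41 untreated and -0.11 after doxorubicin, beside -0.01 and 0.01 over all tested genes.

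RET (ENSG00000165731, chr10:43077027-43130351, plus strand), the receptor of the GDNF family, was lower in KO without treatment and rose with doxorubicin in both genotypes. The untreated Scr libraries held 401 and 433 (Scr13) and 363 and 410 (Scr16) normalized CPM, and the untreated KO libraries held 257 and 284 (KO11) and 300 and 302 (KO28). Every untreated KO library was below every untreated Scr library, and the difference was -0.49 on the log2 scale (SE 0.07, adjusted p = 1.5e-04, limma). With doxorubicin the Scr libraries held 723, 680, 695 and 614, and the KO libraries 600, 568, 629 and 595. The treated groups overlapped, with a KO minus Scr difference of -0.18 (SE 0.07, adjusted p = 0.16). RET rose by 0.75 in Scr (SE 0.07, adjusted p = 5.3e-07) and by 1.07 in KO (SE 0.07, adjusted p = 7.6e-12), without overlap of treated and untreated libraries in either genotype.

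GFRA2 (ENSG00000168546, chromosome 8, minus strand), the coreceptor that presents neurturin to RET, was the member with the lowest KO to Scr ratio in both treatments. Its values without treatment were 39.2 and 27.5 (Scr13), 25.1 and 33.9 (Scr16), 6.56 and 5.18 (KO11) and 9.32 and 8.97 (KO28) normalized CPM. With doxorubicin they were 15.8 and 28.7 (Scr13), 33.8 and 24.1 (Scr16), 4.29 and 2.58 (KO11) and 4.38 and 5.02 (KO28). All KO libraries lay below all Scr libraries of the same treatment. GFRA2 was lower in KO by -1.94 untreated (SE 0.18, adjusted p = 7.6e-07, limma) and by -2.37 after doxorubicin (SE 0.23, adjusted p = 3.1e-07). Within KO it fell with doxorubicin, by 0.74 on the log2 scale (SE 0.22, adjusted p = 0.015), but this call was lost without KO11 untreated replicate 1 (adjusted p = 0.056) or KO11 treated replicate 2 (0.063), and in Scr the difference was -0.31 (SE 0.19, adjusted p = 0.31).

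GFRA3 (ENSG00000146013, chr5:138252379-138274671, minus strand), the artemin coreceptor, was low and variable. Untreated Scr libraries held 4.61, 1.78, 3.13 and 5.34 normalized CPM, and untreated KO libraries 0.661, 1.45, 1.34 and 2.41. The groups overlapped, and the difference of -0.91 was not called (SE 0.29, adjusted p = 0.091, limma). After doxorubicin the Scr libraries held 1.19, 1.70, 0 and 1.56, below all untreated Scr libraries, a difference of -1.19 (SE 0.35, adjusted p = 0.031) that was not called in 5 of the 8 fits without a library, with adjusted p up to 0.13. The treated KO libraries held 1.09, 0.693, 0.327 and 1.55, and the change in KO was -0.36 (SE 0.31, adjusted p = 0.46). GFRA1 (ENSG00000151892, chr10:116056925-116273467, minus strand), the GDNF coreceptor, had 0 reads in 3 libraries and 3.07 normalized CPM at most, and its group means were 1.36 ± 1.34 in untreated Scr, 0.411 ± 0.464 in untreated KO, 0.337 ± 0.398 in treated Scr and 1.44 ± 1.02 in treated KO, with overlap among all 4 groups.

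ALK (ENSG00000171094, chr2:29192774-29921566, minus strand) was lower in KO, most clearly after doxorubicin. Untreated Scr libraries held 256 and 263.3 (Scr13) and 189 and 247 (Scr16) normalized CPM, and untreated KO libraries 187 and 187 (KO11) and 178 and 201 (KO28). Because of the single Scr16 library at 189 the untreated groups overlapped, with a difference of -0.33 (SE 0.09, adjusted p = 0.033, limma). That call held in 2 of the 8 fits that left a library out, and adjusted p reached 0.14. Treated Scr libraries held 233, 253, 272 and 256, and treated KO libraries 170, 154, 152 and 163, with no overlap and a difference of -0.66 (SE 0.07, adjusted p = 2.0e-06). Between treatments ALK changed by 0.10 in Scr (SE 0.09, adjusted p = 0.54) and fell by 0.24 in KO (SE 0.07, adjusted p = 0.022), a call that held in 3 of 8 fits without a library, with adjusted p up to 0.076.

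KIT (ENSG00000157404, chr4:54657918-54740715, plus strand), the receptor of stem cell factor, was higher in untreated KO and fell there with doxorubicin. Untreated Scr libraries held 2.52 and 0.864 (Scr13) and 0.491 and 1.14 (Scr16) normalized CPM, and untreated KO libraries 12.5 and 8.43 (KO11) and 7.04 and 5.98 (KO28). The lowest KO library was above the highest Scr library, and the difference was 2.10 (SE 0.28, adjusted p = 4.3e-05, limma). Treated KO libraries held 3.39 and 3.40 (KO11) and 2.75 and 2.57 (KO28), all below the untreated KO libraries, a fall by 1.20 on the log2 scale (SE 0.22, adjusted p = 2.3e-04). Treated Scr libraries held 0.950, 0.568, 3.61 and 1.23, and the change in Scr was 0.15 (SE 0.36, adjusted p = 0.85). After doxorubicin the genotypes overlapped through 1 library, Scr16 replicate 1, the shallowest of the 16. That library held 38 reads of KIT. The treated difference was 0.76 (SE 0.31, adjusted p = 0.16). It was called in 1 of the 8 fits that left a library out, the fit without that library (1.08, adjusted p = 0.011). In the other fits adjusted p was up to 0.37.

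NTRK3 (ENSG00000140538, chr15:87859751-88256768, minus strand), the receptor of neurotrophin 3, was higher in KO under both treatments and did not pass the test between treatments. Its untreated values were 9.92 and 13.9 (Scr13), 9.57 and 6.93 (Scr16), 35.4 and 34.9 (KO11) and 30.4 and 22.4 (KO28) normalized CPM. Its treated values were 8.79 and 8.90 (Scr13), 10.6 and 6.62 (Scr16), 32.0 and 30.4 (KO11) and 37.7 and 16.6 (KO28). KO and Scr did not overlap in either treatment. The KO minus Scr difference was 1.53 untreated (SE 0.18, adjusted p = 1.4e-05, limma) and 1.59 after doxorubicin (SE 0.21, adjusted p = 1.7e-05). The treatment differences were -0.17 in Scr (SE 0.21, adjusted p = 0.67) and -0.11 in KO (SE 0.16, adjusted p = 0.70).

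NTRK2 (ENSG00000148053, chr9:84668551-85027070, plus strand), the BDNF receptor, stood out only in treated KO libraries. Untreated it was at 3.35, 1.78, 3.38 and 1.36 normalized CPM in Scr and 3.80, 2.23, 1.88 and 1.82 in KO, fully overlapping, with a difference of 0.002 (SE 0.28, adjusted p = 1.00, limma). After doxorubicin it was at 3.27, 2.27, 1.81 and 2.79 in Scr and at 7.49, 7.495, 7.78 and 6.34 in KO. The 4 treated KO libraries lay above the other 12. The treated KO minus Scr difference was 1.24 (SE 0.23, adjusted p = 9.6e-04), a call lost without clone KO11 (adjusted p = 0.051). The change with doxorubicin was 1.30 in KO (SE 0.23, adjusted p = 1.6e-04) and 0.06 in Scr (SE 0.28, adjusted p = 0.93).

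NGFR (ENSG00000064300, chr17:49495293-49515017, plus strand), the low-affinity receptor shared by the neurotrophins, was lower in untreated KO and rose with doxorubicin. Untreated Scr libraries held 12.2, 7.31, 10.1 and 7.78 normalized CPM and untreated KO libraries 3.64, 4.64, 5.90 and 5.32, without overlap and with a difference of -0.80 (SE 0.21, adjusted p = 0.026, limma). Treated Scr libraries held 18.1, 14.3, 14.4 and 13.2 and treated KO libraries 12.9, 14.4, 11.2 and 15.4, which overlapped, with a difference of -0.14 (SE 0.17, adjusted p = 0.71). NGFR rose by 1.31 in KO (SE 0.19, adjusted p = 1.9e-05) and by 0.64 in Scr (SE 0.19, adjusted p = 0.029). The untreated genotype call and the rise in Scr each held in 4 of 8 fits without a library, with adjusted p up to 0.14 in both. Exons of NGFR overlap those of 2 annotated genes on the opposite strand, and how strand was used in counting is not given in the sources used here.

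**Figure D2:**
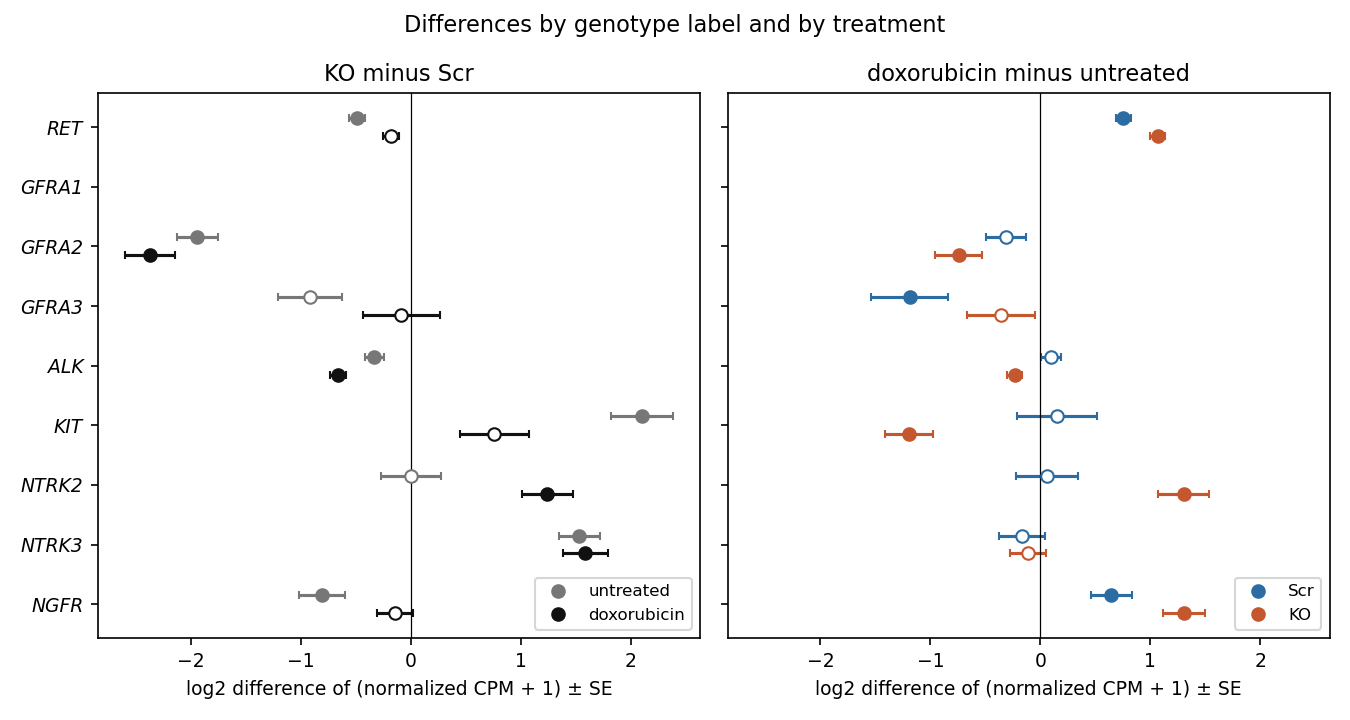
Log2 differences of (normalized CPM + 1) ± SE for the members, KO minus Scr on the left (grey untreated, black doxorubicin) and doxorubicin minus untreated on the right (blue Scr, red KO). Filled points passed adjusted p below 0.05 with limma, open points did not, and GFRA1 was not tested; NTRK3 and GFRA2 were called between genotypes in both treatments, in opposite directions.

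Between treatments 3 of 8 members were called in Scr, 2 higher and 1 lower, against 12.3% of 14378 genes (7.1% higher and 5.24% lower), and 6 of 8 in KO, 3 higher and 3 lower, against 19.6% of 14513 genes (11.3% higher and 8.35% lower). Treated and untreated libraries did not overlap for 3 members in Scr (17.1% of genes) and 6 in KO (19.8% of genes). That more members passed in KO is not by itself a difference between the genotypes, and the interaction of genotype and doxorubicin was tested over all 16 libraries. None of the 9 members passed it with limma, where 4 of 15325 genes (0.0261%) did, and 0 passed with edgeR and 0 with DESeq2. At an unadjusted p under 0.05, where 1274 of the 15325 genes passed, 6 of 9 members did with limma, namely NTRK2 (1.24, SE 0.36, adjusted p = 0.25), RET (0.31, SE 0.09, 0.28), KIT (-1.34, SE 0.42, 0.32), ALK (-0.33, SE 0.12, 0.44), GFRA1 (1.45, SE 0.52, 0.44) and NGFR (0.66, SE 0.27, 0.50).

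The clones of a genotype were also compared with each other over both treatments. Between KO28 and KO11 the members differed by -0.43 for KIT (SE 0.28), -0.36 for NTRK3 (SE 0.20), 0.48 for GFRA2 (SE 0.20), -0.27 for NTRK2 (SE 0.26), 0.16 for NGFR (SE 0.19), 0.11 for RET (SE 0.07) and -0.01 for ALK (SE 0.08). Between Scr16 and Scr13 these 7 members differed by -0.27 (NTRK3, SE 0.20) to 0.18 (KIT, SE 0.28). These differences are averages over both treatments, in which opposite differences cancel. Untreated, KIT was at 1.69 in Scr13 and 0.813 in Scr16, and treated at 0.759 and 2.42 (mean normalized CPM, n = 2). With limma 0 of 9 members were called in either contrast, where 0.0522% of genes were called between the KO clones and 0.0131% between the Scr clones. At an unadjusted p under 0.05 GFRA2 alone passed between the KO clones (1441 of all 15325 genes did) and 0 members between the Scr clones (1208 of all), and edgeR and DESeq2 called 0 members in both. When each clone was averaged to 1 value per treatment, 561 of 14364 genes were called between genotypes without treatment and 983 of 14572 after doxorubicin. Among them, 5 members were called between genotypes without treatment (RET, NTRK3, KIT, GFRA2 and, at adjusted p = 0.049, NGFR) and ALK was not (0.076), and 4 were called after doxorubicin.

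**Figure D3:**
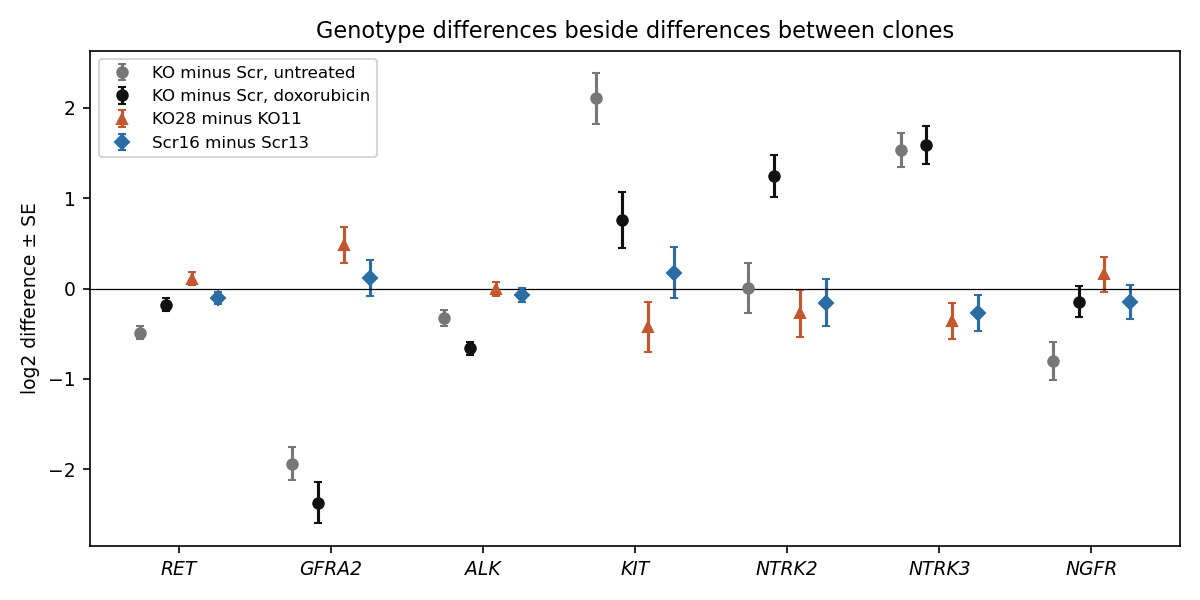
Log2 differences of (normalized CPM + 1) ± SE for 7 members, KO minus Scr in each treatment (circles) beside KO28 minus KO11 (triangles) and Scr16 minus Scr13 (diamonds). The genotype differences of GFRA2 (-1.94 and -2.37) and NTRK3 (1.53 and 1.59) lie beyond the differences between clones of a genotype. Those were averaged over both treatments, in which opposite differences cancel, and were at most 0.48 in size over all libraries. When a library was left out, KO28 minus KO11 was 0.34 to 0.62 for GFRA2 and -0.65 to -0.076 for NTRK3.

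Some ligand genes of these receptors were called between genotypes, where 4.84% of all tested genes were called untreated and 8.69% treated. Of 12 ligand genes, 7 were tested without treatment, with 2 higher and 1 lower in KO, and 6 after doxorubicin, with 2 higher and 2 lower, and a median log2 difference of 0.03 and -0.02. KITLG, the ligand of KIT, rose with doxorubicin from 8.31, 4.72, 8.47 and 8.69 to 57.9, 55.9, 32.9 and 34.7 normalized CPM in Scr, and from 12.6, 13.01, 10.9 and 10.8 to 115, 97.7, 90.9 and 86.8 in KO. The rise was 2.42 in Scr (SE 0.20, adjusted p = 2.4e-07, limma) and 2.94 in KO (SE 0.11, adjusted p = 5.9e-17), and treated KO libraries were above treated Scr libraries by 1.13 (SE 0.15, adjusted p = 1.8e-05). In KO the ligand gene rose where the KIT receptor gene fell.

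BDNF, the ligand of TrkB, was at 8.78, 5.07, 5.52 and 6.82 normalized CPM in untreated Scr and at 2.92, 3.49, 0.335 and 2.33 in untreated KO. It was lower in KO untreated (-1.32, SE 0.31, adjusted p = 0.014, limma) and treated (-0.86, SE 0.21, adjusted p = 0.0087), and rose with doxorubicin by 0.98 in Scr and 1.44 in KO (adjusted p = 0.0038 and 3.2e-04). KO28 minus KO11 was -0.68 for BDNF over both treatments (SE 0.25, adjusted p = 0.39, limma). The untreated KO28 library at 0.335 held 5 reads of BDNF. NRTN, which encodes neurturin, the ligand presented by GFRA2, was lower in treated KO (4.77 ± 1.17 against 10.2 ± 3.52, log2 difference -0.93, SE 0.24, adjusted p = 0.016). PTN and MDK encode pleiotrophin and midkine, which have been described as ALK ligands. PTN was higher in KO, at 47.7 ± 3.06 against 23.0 ± 3.95 untreated (1.04, SE 0.12, adjusted p = 1.2e-05) and 53.1 ± 3.64 against 21.0 ± 3.63 treated (1.31, SE 0.12, adjusted p = 2.8e-07). MDK was higher in untreated KO by 0.42 (SE 0.12, adjusted p = 0.040), with 449 and 483 normalized CPM in KO28, above all Scr libraries, and 309.9 and 348 in KO11, where the Scr libraries held 245 to 344. The KO clones differed in MDK by 0.34 (SE 0.09, adjusted p = 0.16) over both treatments. MDK rose with doxorubicin by 0.53 in Scr and 0.32 in KO. ALKAL2, an activating ligand of ALK, had a group mean of 0.229 at most, and GDNF, NTF3 and ALKAL1 had no value in the tables used here.

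Among 13 related receptors and coreceptors, 7 were tested without treatment (1 higher and 1 lower in KO, beside 2.3% and 2.54% of all tested genes) and 9 after doxorubicin (1 lower, beside 4.17% of all), with median differences of -0.06 and -0.11. SORCS1, a sorting receptor that binds Trk receptors, was lower in KO (162 against 229 untreated, -0.49, SE 0.07, adjusted p = 7.6e-05, limma, and -0.52 treated), and LINGO1, a partner of NGFR in the Nogo receptor complex, was higher in untreated KO (14.9 against 8.17, 0.84, SE 0.19, adjusted p = 0.010). With doxorubicin SORCS1 fell in both genotypes, by 0.34 in Scr and 0.37 in KO on the log2 scale, SORCS2 and LINGO1 rose in both, and SDC3 rose in KO. Of 9 tested in Scr 2 rose and 1 fell (7.1% and 5.24% of all tested genes), and of 8 in KO 3 rose and 1 fell (11.3% and 8.35% of all).

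The core pathways and adaptors downstream of the receptors are read against 4.84% of all tested genes called between genotypes untreated and 8.69% treated. In the RAS-MAPK core 0 of 10 tested genes were called between genotypes without treatment by limma, edgeR or DESeq2 (1 at an unadjusted p under 0.05 by each) and 2 after doxorubicin (NRAS at 0.28 and MAP2K2 at -0.34 for KO minus Scr). In the PI3K-AKT core 0 of 8 were called untreated by the same tools (0 at an unadjusted p under 0.05), and after doxorubicin 0 were called by limma and edgeR and 1, lower in KO, by DESeq2 (2 at an unadjusted p under 0.05 by each). With limma 2051 of all 14364 genes passed an unadjusted p under 0.05 untreated and 2953 of 14572 treated. Of 23 tested adaptors 2 were lower in KO in each treatment, DOK4 (-0.44 and -0.29) and IRS2 (-0.31 and -0.43), both docking proteins that bind phosphorylated receptors. PTPRG, a receptor phosphatase, was higher in KO by 1.13 and 1.38, NEDD4L, a ubiquitin ligase, by 0.43 untreated, and ERRFI1, an inhibitor of EGFR family receptors, by 0.48 treated. With doxorubicin 5 of 23 tested adaptors rose and 1 fell in Scr, beside 7.1% and 5.24% of all tested genes. In KO 6 of 23 rose and 2 fell, beside 11.3% and 8.35% of all. In both genotypes SHC1, SHC2, FRS3, GAB2 and IRS2 rose and SHC3 fell, and in KO FRS2 also rose and IRS1 fell. Outside the adaptors, the phosphatase PTPRF rose in both genotypes and PTPRB in KO (1 of 13 tested ubiquitin ligases and phosphatases in Scr and 2 of 14 in KO). Among 8 tested genes of the PI3K-AKT core PIK3R3 fell in both and AKT1 rose in Scr. Among 10 of the RAS-MAPK core MAP2K2 rose in Scr.

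The feedback inhibitors and transcriptional targets of MAPK signalling were counted in each direction, and the direction of the list was not tested. Between genotypes 4 of 16 tested genes were higher in untreated KO (2.3% of all tested genes were) and 5 of 17 in treated KO (4.52% of all), and 0 were lower in either with limma (1 at an unadjusted p under 0.05 in each treatment). By edgeR 0 were lower in either, and by DESeq2 0 untreated and 1 treated. EGR1, an immediate early transcription factor, was higher by 0.78 (SE 0.16, adjusted p = 0.0039, limma) and 0.92 (SE 0.10, adjusted p = 1.1e-06), SPRY4, a feedback inhibitor, by 0.50 and 0.76, and PHLDA1 by 1.06 and 1.76. VGF was higher untreated (0.42), and FOSL1 (1.68) and the ERK phosphatase DUSP6 (0.38) treated. With doxorubicin 8 of 16 rose in Scr (7.1% of all tested genes did) and 11 of 17 rose in KO (11.3% of all), where 1, ETV1, fell (8.35% of all). DUSP4, DUSP6, SPRY1, SPRY2, VGF and EGR1 rose in both genotypes, MAFF and ETV4 in Scr, and DUSP5, SPRY4, SPRED3, PHLDA1 and FOSL1 in KO. In the interaction of genotype and doxorubicin 0 of 17 passed with limma, edgeR or DESeq2 (3, 0 and 1 at an unadjusted p under 0.05). The median log2 difference of the list was 0.42 in Scr and 0.63 in KO, beside -0.01 and 0.02 over all tested genes.

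**Figure D4:**
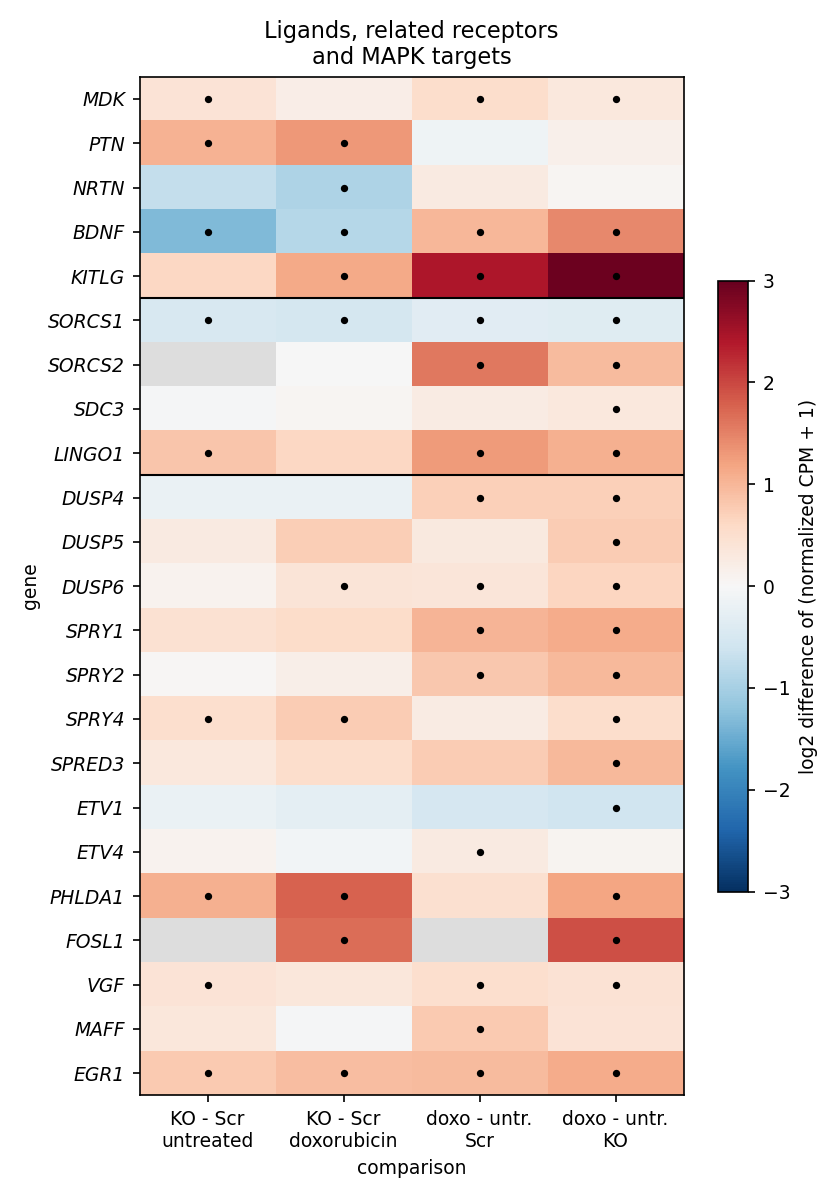
Log2 differences of (normalized CPM + 1) for ligand genes (upper block), related receptors (middle) and MAPK targets (lower) that were called in at least 1 comparison; colour gives the difference, dots mark adjusted p below 0.05 with limma, and grey cells were not tested. KITLG rose by 2.42 and 2.94 with doxorubicin, and BDNF was lower in KO in both treatments.

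Among 51 other receptor tyrosine kinase genes, 31 were tested without treatment and 30 after it. EPHA2 and EPHB4, receptors of ephrins, were higher in KO in both treatments, EPHB4 at 38.6 ± 5.59 against 16.4 ± 2.72 untreated (1.19, SE 0.14, adjusted p = 1.1e-05, limma) and at 38.8 ± 2.59 against 20.1 ± 4.36 treated (0.94, SE 0.14, adjusted p = 1.2e-04). The collagen receptor DDR2 was lower in both (-0.30 and -0.38). PDGFRA, a close relative of KIT, was higher in untreated KO at 28.1, 25.5, 24.5 and 24.0 normalized CPM against 14.2, 6.22, 9.14 and 12.7 (1.25, SE 0.19, adjusted p = 2.0e-04), and fell with doxorubicin in KO by 1.24 on the log2 scale (SE 0.15, adjusted p = 1.3e-06), the directions that KIT took. IGF1R and EPHA8 were also higher in untreated KO, INSRR (whose exons overlap those of another annotated gene) and MET were higher in treated KO, and EGFR, ROR1 and ROR2 were lower there. In all, 5 were higher and 1 lower untreated (2.3% and 2.54% of all tested genes), and 4 were higher and 4 lower treated (4.52% and 4.17% of all), with median differences of -0.01 and -0.08. With doxorubicin 8 of 30 rose in Scr (7.1% of all tested genes did), and 8 of 31 rose and 4 fell in KO (11.3% and 8.35% of all). EPHA2 rose by 1.77 in Scr and 1.66 in KO, ERBB2, INSR, FGFR3, MERTK, AATK and LMTK3 also rose in both, FGFR4 in Scr and INSRR in KO, and EGFR, PDGFRA, FGFR1 and PTK7 fell in KO.

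Markers of the mesenchymal state of neuroblastoma also differed between the genotypes. Their summed level was 863 ± 214 normalized CPM in untreated Scr and 1256 ± 138 in untreated KO, and 834 ± 139 and 1323 ± 165 after doxorubicin (SD, n = 4), with VIM the most abundant. Untreated, the Scr13 library at 1161 lay within the KO libraries (1090 to 1408), and treated, the highest Scr library (1008) was below the lowest KO library (1122). Of 11 tested, 6 were higher and 1 lower in KO without treatment (2.3% and 2.54% of all tested genes), and 7 were higher and 1 lower with it (4.52% and 4.17% of all), with median differences of 1.05 and 1.23. FN1 (1.55 and 2.14), VIM (1.10 and 1.23), YAP1 (1.91 and 2.18), COL3A1 (2.17 and 2.88), COL1A1 (1.52 and 1.51) and FOSL2 (0.73 and 0.78) were higher in both, CD44 (1.76) was higher treated, and TWIST1 was lower in both (-0.53 and -0.64). Among 11 tested adrenergic markers GATA3, a sympathetic lineage factor, was higher in untreated KO, and in treated KO ELAVL4 was higher and TFAP2B lower. With doxorubicin 3 of the 11 rose and 1, ISL1, fell in Scr (7.1% and 5.24% of all tested genes), and 3 rose and 4 fell in KO (11.3% and 8.35% of all), the latter being CHGA, DBH, ISL1 and TFAP2B. CHGA was at 26.4 normalized CPM in 1 untreated KO11 library and between 1.21 and 2.59 in the other untreated KO libraries. The part of these markers in the receptor differences was not tested. The p53 targets used as treatment controls were higher in KO for 3 of 6 tested genes without treatment and 7 of 7 with it (2.3% and 4.52% of all tested genes), and 7 of 7 rose with doxorubicin in each genotype (7.1% of all in Scr and 11.3% in KO).

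The genes whose levels followed each member most closely were taken from 15324 other genes by the root mean square difference of log2(normalized CPM + 1), each gene centred on its own mean over the 16 libraries. For ALK they were PBX3 (0.104) and SLIT3 (0.111), beside a spread of ALK itself of 0.287. For RET, with a spread of 0.497, they were IQSEC3 (0.145), CNTN2 (0.161) and ISYNA1 (0.166). NGFR (spread 0.603) was nearest to FEZ1 (0.235), RET (0.240) and IQSEC3, so that RET and NGFR shared a neighbour and NGFR had RET among its own. The nearest genes were RYR2, ZNF135 and C14orf39 for GFRA2 (0.341 to 0.455, spread 1.16), HMCN1, PRKCA and GRIK3 for NTRK3 (0.311 to 0.331, spread 0.846), TGFBI, OSBPL3 and IL13RA1 for NTRK2 (0.205 to 0.317, spread 0.622), and RERG, SATB1-AS1 and ZIC1 for KIT (0.416 to 0.463, spread 0.931). For GFRA3, with a spread of 0.675, FAIM was nearest (0.361), followed by LCP1 (0.424).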

How the data were processed

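The authors prepared polyA RNA libraries with a directional kit, and the submitters' processing notes name bcl2fastq, HISAT2 2.1.0, HTSeq, edgeR and GRCh38. How HTSeq was set to use strand is not given in the sources used here. The deposited values are a signal, counts that the authors normalized to an effective library size (normalized CPM), in a table of untreated and a table of doxorubicin libraries. Every value was a whole multiple of the column's smallest step (100%, tolerance 0.001), so whole reads were recovered. The product of the normalization factors was 1.10 for the untreated table, 0.935 for the treated table and 1.03 over all 16 libraries. Because the product over all 16 was not exactly 1 either, these values do not settle whether the tables were normalized together. The tables were used together. The authors' columns of log2 fold changes, p-values and q-values, and the rank score of each gene, as deposited by the authors, were not used. All 16 columns of values were mapped to samples. A table of gene names matched 95.9% of identifiers, and positions and exon lengths came from GENCODE 29 on GRCh38.

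The groups were compared with limma 3.58.1 (R 4.3.3) on log2(normalized CPM + 1), with an abundance trend, for genes that reached 1 normalized CPM in at least 4 libraries, and p-values were adjusted over all tested genes with the Benjamini-Hochberg method at 0.05. Differences in the text are on this log2 scale, which understates changes of low genes, unless another pseudocount, scaling or tool is named. KO and Scr were compared over 8 libraries per treatment without a covariate, treatments and the interaction with the clone as a fixed term, and clones over 16 libraries. An exact permutation test of 4 against 4 libraries cannot go below p = 0.0286. The limma fits of untreated genotypes, doxorubicin in Scr, the interaction and the KO clones were also run on simulated reads. Apart from the effect that was set, those reads held no differences between clones. Alternatives used edgeR 4.0.16 and DESeq2 1.42.0 on recovered reads, other pseudocounts, filters and scalings, clone means and blocks, and left-out clones and libraries. Replicate libraries were further apart than counting error alone (chi-square per gene 7.79 to 16.9), and p-values measure the spread between libraries of 2 clones a genotype.

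The members and gene lists were chosen with earlier results of these data known. Genes named are the members, TRPM2, CDKN1A, the genes of the lists that were called in a comparison, and the 3 nearest genes of each called member. Some genes of the lists are not reported here and were left out of the counts, whatever their values. Promoter sequences are from RefSeq (GRCh38.p14).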

Additional observations from a re-analysis of the deposited data

Results flagged for a closer look

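In the 44 sets of 4 libraries examined (11 genes, the members with TRPM2 and CDKN1A, in each of the 4 groups) 0 libraries stood apart from the others by Dixon's criterion, and 0 members passed the test of the interaction of genotype and treatment.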

How the results depend on the processing

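The directions and calls of RET, NTRK3, KIT and GFRA2 between untreated genotypes, of ALK, NTRK3 and GFRA2 between treated genotypes, of RET in Scr, and of RET, NGFR, NTRK2 and KIT in KO held under every alternative in which the gene was tested. NTRK2 between treated genotypes was lost without clone KO11 (adjusted p = 0.051, limma). Of the other calls, ALK and NGFR between untreated genotypes held in 12 and 15 of 23 alternatives, NGFR and GFRA3 in Scr in 13 of 18 and 9 of 17, and ALK and GFRA2 in KO in 12 and 15 of 18. Without a filter, 368 genes were called between untreated genotypes, 831 between treatments in Scr (where 1 member was, RET), 2 in the interaction, 2 between the KO clones and 4 between the Scr clones. Untreated, 330 genes were called without Scr13 and 327 without Scr16, and treated, 510 without KO11 and 575 without KO28. The interaction called 20 genes at a pseudocount of 4, 10 with edgeR and 58 with DESeq2. The KO clones differed in 18 genes at a pseudocount of 4 and 56 with DESeq2, and the Scr clones in 1 gene at a mean of at least 5 normalized CPM, 4 with edgeR and 10 with DESeq2. The causes of these shifts were not tested.

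The replicate numbers did not pair the samples (correlations of same-numbered deviations from -0.100 to 0.120). With the number as a replicate block 697, 1365, 2113 and 2948 genes were called in the 4 comparisons and 25 in the interaction, and 6, 4, 3, 6 and 0 members.

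Leaving out a library gave 508 to 678 genes between untreated genotypes (4 to 7 members), 814 to 1314 between treated genotypes (4 to 5 members, 814 without KO11 replicate 1), 1100 to 1739 in Scr (1 to 3 members, 1100 without Scr13 untreated replicate 2 and 1102 without Scr13 treated replicate 1), 2049 to 2903 in KO (4 to 6 members), 1 to 19 in the interaction, 0 to 13 between the KO clones and 1 to 27 between the Scr clones (0 members in the last 3). In Scr only RET was called without Scr13 treated replicate 1, Scr16 untreated replicate 2 or Scr16 treated replicate 1.

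Values that changed sign were those of differences that had not been called. NTRK2 between untreated genotypes was -0.0038 at a pseudocount of 4, -0.0063 with library size alone, -0.017 with edgeR, -0.013 with DESeq2, -0.23 without KO11 and -0.054 without Scr16, and -0.17 to 0.13 without a library. GFRA3 between treated genotypes was 0.012 at a pseudocount of 0.25 and -0.41 to 0.078 without a library. Without a library, the treatment difference in Scr was -0.019 to 0.16 for ALK, -0.11 to 0.25 for NTRK2 and -0.095 to 0.35 for KIT, that of NTRK3 in KO was -0.35 to 0.11 and its interaction -0.18 to 0.27. Between KO clones ALK was at -0.053 to 0.034, and between Scr clones ALK was at -0.17 to 0.025, NTRK2 at -0.38 to 0.068, NGFR at -0.31 to 0.017, KIT at -0.084 to 0.44 and GFRA2 at -0.085 to 0.33.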

Other observations

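HRAS, a RAS gene that most cells express, had group means of 0.0735 to 0.598 normalized CPM, and PIK3R2, a regulatory subunit of PI3K, had 0 to 0.0787. Why these were near 0 was not tested, and no direction is given for them.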
